A study of Homo sapiens with 6 samples.

Results

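The genes described here are 10 nuclear receptors of myeloid cells, RXRA, RARA, VDR, NR1H2, NR1H3, PPARG, PPARD, NR3C1, NR4A1 and NR4A2. They were found by gene name in the count table, and all 10 of its 33981 genes were present and passed the filter on low counts. Nuclear receptors are transcription factors, most of which change activity when a small lipophilic ligand binds them. RXRA is the common partner: the receptors for retinoic acid, vitamin D, oxysterols and fatty acids bind DNA as heterodimers with it, recruiting corepressor complexes without ligand and coactivators with it. In monocytes and macrophages these receptors are known for their part in maturation, lipid handling and the control of inflammation.

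The cells were THP-1, a monocytic line from an acute myeloid leukemia, grown in IMDM with fetal bovine serum by the labels and in RPMI by the study's supplement. One group of 3 samples had received a scrambled shRNA and the other group of 3 samples an shRNA against NFIC, a nuclear factor I transcription factor, both on lentiviral vectors. Cells carrying the vector were sorted by GFP and taken for bulk RNA sequencing on day 4 after infection. The labels and the study's results call the control scrambled shRNA, the name kept in what follows, although the methods describe a vector with GFP only. The knockdown rests on 1 hairpin, sh494, and the labels name no added ligand. The labels do not say that the samples of a group came from separate cultures, so p-values measure only the spread between these samples, which may be technical. In such bulk samples fewer cells of a type and less RNA per cell cannot be told apart.

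Total counts ranged from 20369543 to 24809720 per sample, so 3 counts, taken as the smallest detectable amount, equal 0.121 to 0.147 CPM, the count scaled to the library total. Such floors cover counting error only. The groups separated on the first principal component, which held 77.2% of the variance. On the second, with 7.37%, scrambled replicate 2 and NFIC shRNA replicate 3 lay at -18 and -20.5 and the other samples between 4.63 and 15.8. Some results are therefore also given without these 2 samples. All 8 monocytic markers listed passed the filter on low counts, with sums of 1300 to 1400 CPM in the scrambled samples and 1480 to 1650 CPM in the NFIC shRNA samples. Of them 3 rose and 4 fell, with a median log2 fold change of -0.08, and the higher sum came with LYZ, which went from 572 to 940 CPM. Markers of other lineages had low sums, lower in the NFIC shRNA samples. The 2 T cell markers measured of 5, CD3D and CD8A, summed to 1.62 to 1.96 CPM with scrambled and 0.388 to 0.776 CPM with NFIC shRNA, and CD3D had at most 1 count in a sample. The sums were 8.37 to 9.39 and 4.46 to 5.59 CPM for B cells, 5.32 to 6.14 and 0.997 to 2.03 CPM for epithelium, 1.14 to 2.2 and 0.563 to 0.825 CPM for granulocytes, and 0.42 to 0.813 and 0.0862 to 0.26 CPM for erythroid cells. CAMP alone gave 0.935 to 2.10 CPM of the granulocyte sum with scrambled and 0.130 to 0.388 CPM with NFIC shRNA. The part of these other lineages in the receptor results was not tested.

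The hairpin's target is printed because its match to the receptor transcripts bears on the reading of every fold change. It lies in an exon of NFIC at chr19:3449042-3449062 of GRCh38, on the gene's strand, in 8 of 11 GENCODE transcripts and within the coding sequence of 7 of them.
sh494 target: gatggacaagtcaccattcaa
Against the transcripts of the 10 receptors this sequence of 21 bases had at least 6 mismatches, the fewest being 6 in PPARG and NR4A1. Only the whole sequence was compared, without gaps. Shorter matches were not searched for, so pairing of the hairpin with these transcripts over fewer bases was not tested. NFIC was counted 911, 1019 and 904 times in the scrambled samples and 399, 518 and 493 times in the NFIC shRNA samples. After scaling this was 50.1% of the scrambled level (log2 fold change -0.99, SE 0.0723, edgeR adjusted p = 3.73e-09).

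Of the 10 receptors, 8 passed the edgeR test at an adjusted p of 0.05, with NR1H2 higher and RARA, RXRA, VDR, NR3C1, NR1H3, PPARG and NR4A1 lower. NR4A2 and PPARD did not pass it. The share must be read against a comparison in which most genes moved: 59.9% of the 19182 genes tested passed, 29.6% higher and 30.3% lower, and 65.7% passed among the 15242 genes with a mean log2 CPM of at least 1. The median log2 fold change of the 10 receptors was -0.32, beside -0.01 over all genes tested, while their median absolute change of 0.34 lay near the 0.37 of all genes. VDR, NR1H2 and PPARG stood highest within the set, with absolute changes at percentiles 85.8, 86.3 and 81.7 of all genes tested, and the other receptors lay at or below percentile 65.4.

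**Figure D1:**
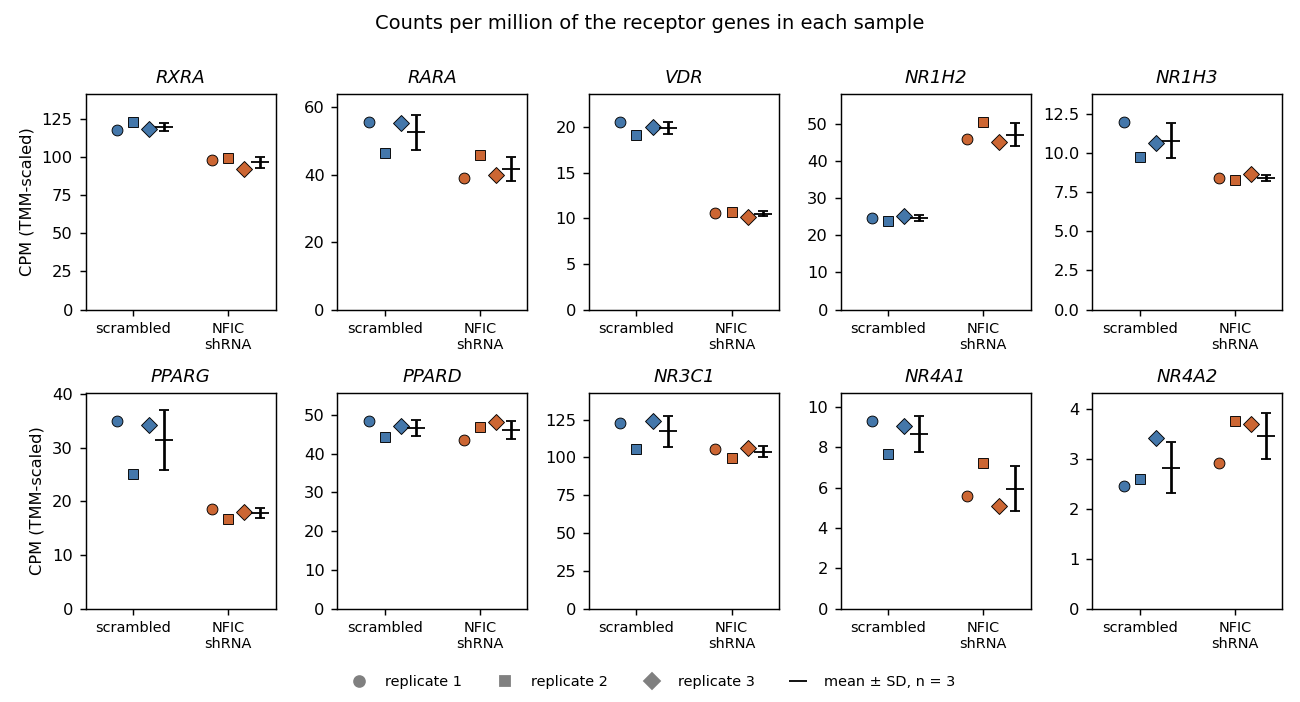
CPM of each of the 10 receptor genes (vertical axes from 0, scaled per gene) in the 3 scrambled and 3 NFIC shRNA samples, with the mean ± SD beside the points. NR1H2 is the receptor whose 3 NFIC shRNA samples, from 45.0 to 50.5 CPM, all lie above its scrambled samples, and VDR and PPARG show the widest gaps downward.

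RXRA and RARA are the retinoid receptors, RARA binding all-trans retinoic acid and RXRA serving as partner to RARA, VDR, NR1H2, NR1H3, PPARG and PPARD. RXRA (ENSG00000186350, chromosome 9 of GRCh38 from 134317098 to 134440585) was measured at 118, 123 and 118 CPM in the scrambled samples and at 97.6, 99.4 and 92.1 CPM in the NFIC shRNA samples. The groups were apart, and the knockdown mean was 80.5% of the scrambled mean. Its log2 fold change was -0.31 (SE 0.0522, edgeR adjusted p = 5.99e-05), and -0.26 without the 2 samples apart on the second component. RARA (ENSG00000131759, chromosome 17 from 40309180 to 40357643) was at 55.7, 46.5 and 55.5 CPM in the control and at 39.2, 45.8 and 40.1 CPM in the knockdown. The groups nearly met, at scrambled replicate 2 and NFIC shRNA replicate 2. The log2 fold change of RARA was -0.33 (SE 0.0799, edgeR adjusted p = 1.75e-03), and -0.39 without the 2 samples apart on the second component. Exons of RARA overlap 3 genes on the other strand, of which ENSG00000278918 had the most counts, 153 to 226 per sample.

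Retinoids reach these receptors through binding proteins and dehydrogenases. Of 16 listed genes of retinoid metabolism and binding, 10 were tested, 1 rose and 4 fell, with a median log2 fold change of -0.01. CRABP1, a cytosolic carrier of retinoic acid, fell by 1.94 on the log2 scale and FABP5, which carries fatty acids and retinoic acid, fell by 1.64. RDH11, a retinal reductase, rose by 0.38. Among retinoic acid targets 4 of 12 tested passed, a share of 33.3%, with CD38 (0.90) and CEBPE (0.72) higher and TGM2 (-1.51) and PRAM1 (-1.13) lower. CD38 is an ectoenzyme, CEBPE a granulocytic transcription factor, TGM2 a transglutaminase and PRAM1 an adaptor protein, and the median of the list was 0.00412.

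VDR binds the active form of vitamin D and is induced during monocytic maturation. VDR (ENSG00000111424, chromosome 12 from 47841537 to 47943048) was at 20.6, 19.2 and 19.99 CPM in scrambled samples and at 10.6, 10.7 and 10.2 CPM after NFIC shRNA. The groups were far apart relative to their spread, 19.9 ± 0.700 against 10.5 ± 0.282 CPM (SD, n = 3), or 52.7% of the scrambled mean. The log2 fold change was -0.92 (SE 0.0871, edgeR adjusted p = 8.54e-08), and leaving out any 1 sample gave values from -0.96 to -0.90. The count table lists VDR as a polymorphic pseudogene and GENCODE release 44 as protein coding.

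Of 11 genes of vitamin D metabolism and targets tested, 3 rose and 6 fell, with a median of -0.35. THBD, the thrombin receptor thrombomodulin, fell by 1.86 on the log2 scale (edgeR adjusted p = 4.14e-13). CAMP, which encodes the antimicrobial peptide cathelicidin, fell by 2.42, from a mean of 1.64 CPM. CAMP is also on the granulocyte marker list, and gave most of its sum in the scrambled samples, 0.935 to 2.10 CPM beside 1.14 to 2.2 CPM. The fall of that sum is therefore not separate from the fall of CAMP. CD14, the lipopolysaccharide co-receptor and another known vitamin D target, rose by 0.65, and ASAP2, an Arf GTPase-activating protein, rose by 1.02.

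NR1H2 and NR1H3 encode the oxysterol receptors LXR beta and LXR alpha, which switch on cholesterol efflux and fatty acid synthesis genes. NR1H2 (ENSG00000131408, chromosome 19 from 50329653 to 50383388) was at 24.7, 23.8 and 25.3 CPM in the scrambled samples. With NFIC shRNA it reached 45.8, 50.5 and 45.0 CPM, or 191% of the scrambled mean. No other receptor of the 10 was called higher. Its log2 fold change was 0.94 (SE 0.0702, edgeR adjusted p = 5.19e-09) and stayed between 0.89 and 0.97 with any 1 sample left out. Exons of NR1H2 share 1182 bases with NAPSA on the other strand, which had 12 to 32 counts beside 535 to 1172 for NR1H2. Whether reads were counted by strand is not given in the sources used here.

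NR1H3 (ENSG00000025434, chromosome 11 from 47248300 to 47269033) was at 11.97, 9.71 and 10.6 CPM in the scrambled samples and at 8.39, 8.23 and 8.62 CPM in the knockdown samples. It thus lay lower in all 3 knockdown samples, at 78.1% of the scrambled mean. The log2 fold change was -0.35 (SE 0.110, edgeR adjusted p = 1.05e-02), and -0.45 without the 2 samples apart on the second component. Without scrambled replicate 1, the highest sample, it was -0.28 with an edgeR adjusted p of 0.0638. The neighbouring gene ACP2, with 374 to 504 counts, overlaps 189 bases of its exons on the other strand, and NR1H3 itself had 173 to 259 counts.

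NFI proteins are known to bind the motif TTGGC, which reads GCCAA on the other strand, and the windows of 250 bases before RefSeq transcript starts (GRCh38.p14) were searched for it on both strands, with overlapping matches all counted. Promoter entries were matched for 8 of the 10 receptors, without VDR and NR4A2. The motif lay in 11 of their 26 windows (42.3%) and in 40.8% of all 35116 windows. The paired site, TTGGC followed by GCCAA with 5 bases between them, lay in none of the 26 and in 0.0285% of all windows. Matches before the starts of the LXR genes and of the PPAR genes described next are printed on the strand of the gene with 10 bases on either side. The ratios within these pairs separated the groups without overlap, though the test given below could not call such a separation. Both receptors of each pair had entries. The ratio of NR4A1 to NR4A2, described below, did the same, but NR4A2 had no entry, and the NR4A1 matches are not printed. Capitals mark the motif, and not every match is printed. The windows printed for NR1H2 and NR1H3 overlap exons of the same gene and lie downstream of the gene starts given above. The NR1H3 windows before the starts at 47248300 and 47248895 held no match.
NR1H2, chr19:50376215-50376239: tagctagggtTTGGCcgcaggctca
NR1H2, chr19:50376318-50376342: gaactcttctGCCAAgtcccagtag
NR1H3, chr11:47257491-47257515: ttctaccagcTTGGCtgaggcctgg
NR1H3, chr11:47257525-47257549: ggagagcttcTTGGCctcttcccag
NR1H3, chr11:47257756-47257780: gacatggaacTTGGCtggtctgcag
NR1H3, chr11:47257786-47257810: tgccactgttTTGGCcgggagtagg
PPARG, chr3:12287124-12287148: acgcgcacctGCCAAcccactttgg
PPARG, chr3:12351329-12351353: accaagtcttGCCAAagcagtgaac
PPARD, chr6:35342462-35342486: ggcgtggtgaTTGGCcgccgccggg
The only NR1H2 window held the motif at 232 and 129 bases before the start, among others, and the only PPARD window held 1, at 86 bases. At least 1 window held the motif before NR1H2, which rose, and before PPARD, which did not pass the test. The same held for RARA, NR3C1, NR1H3, PPARG and NR4A1, which fell. These are 7 of 8 genes, several with more than 1 window, and no share by gene over all genes is given beside them. RXRA, which fell, had none in its 2 windows. Such matches describe the letters of these windows and not binding.

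The LXR target list split in both directions: 11 of 13 genes tested passed, 4 higher and 7 lower, with a median of -0.26. ABCA1, the cholesterol efflux pump, rose by 1.27 on the log2 scale and SMPDL3A, a phosphodiesterase, by 2.21, from 2.60 to 11.99 CPM. APOC1, an apolipoprotein, fell by 2.44 (39.2 to 7.19 CPM, edgeR adjusted p = 6.28e-13), and PLTP, which transfers phospholipids between lipoproteins, fell by 1.46. The genes with the pattern nearest to NR1H2, by Euclidean distance of centred log2 CPM over 6 samples among 15241 other genes, were CRISPLD2 (distance 0.0878), GFPT1 (0.0982) and AC079807.1 (0.101), at log2 fold changes of 1.00, 0.99 and 0.99.

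PPARG and PPARD are fatty acid receptors, PPARG the one associated with lipid storage and macrophage maturation and PPARD with fatty acid oxidation. PPARG (ENSG00000132170, chromosome 3 from 12287368 to 12434356) was at 35.0, 25.1 and 34.3 CPM in the control samples and at 18.7, 16.8 and 18.0 CPM in the knockdown samples. All knockdown samples were below all scrambled samples, of which replicate 2, one of the samples apart on the second component, was the lowest. The knockdown mean was 56.6% of the scrambled mean, with a log2 fold change of -0.82 (SE 0.112, edgeR adjusted p = 1.51e-05) and of -0.97 without the 2 samples apart. PPARD (ENSG00000112033, chromosome 6 from 35342558 to 35428191) was at 48.4, 44.3 and 47.1 CPM in scrambled samples and at 43.6, 46.9 and 48.1 CPM in knockdown samples. These ranges overlapped, and the log2 fold change was -0.01 (SE 0.0647, edgeR adjusted p = 0.883). With any 1 sample left out the value lay between -0.05 and 0.03.

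Of 9 PPAR targets tested, 6 rose and 2 fell, with a median of 0.18. CPT1A, which admits fatty acids to mitochondria for oxidation, rose by 0.35 on the log2 scale. CD36, the fatty acid and oxidized lipoprotein receptor, fell by 0.85, and ACADVL, the very long chain acyl-CoA dehydrogenase, fell by 1.02 (edgeR adjusted p = 1.83e-03).

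NR3C1 is the glucocorticoid receptor, which is held in the cytoplasm by HSP90 and its co-chaperones and acts as a homodimer rather than with RXRA. NR3C1 (ENSG00000113580, chromosome 5 from 143277931 to 143435512) was at 122, 106 and 124 CPM in the scrambled samples and at 105, 99.8 and 106 CPM in the knockdown samples. The groups overlapped, scrambled replicate 2 lying among the knockdown samples. The log2 fold change was -0.18 (SE 0.0620, edgeR adjusted p = 2.12e-02). This was the least secure of the 8 calls, since DESeq2 gave an adjusted p of 0.0579. Leaving out scrambled replicate 1 or 3 gave edgeR adjusted p of 0.0871 and 0.109, and NFIC shRNA replicate 1 or 2 gave 0.0535 and 0.0801. Without the 2 samples apart on the second component it was -0.27 with an edgeR adjusted p of 1.16e-05.

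Of 10 chaperone genes of the glucocorticoid receptor, 4 rose and 4 fell, with a median of 0.10. FKBP4 and PPID, immunophilins of the HSP90 complex, fell by 1.42 and 0.79 on the log2 scale, and DNAJA1 and STIP1, which help to load clients onto HSP90, rose by 0.36 and 0.30. Among glucocorticoid targets 7 of 11 tested passed, 4 higher and 3 lower, with a median of 0.18. TSC22D3 (GILZ) and CRISPLD2 rose by 0.50 and 1.00, and NFKBIA, an inhibitor of NF-kappaB, and TXNIP, an inhibitor of thioredoxin, fell by 0.47 and 1.28.

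NR4A1 and NR4A2 are orphan receptors whose transcripts rise within the first hour of many stimuli. NR4A1 (ENSG00000123358, chromosome 12 from 52022832 to 52059507) was at 9.29, 7.64 and 9.06 CPM in the scrambled samples and at 5.58, 7.20 and 5.07 CPM in the NFIC shRNA samples. The groups were apart, although NFIC shRNA replicate 2 came close to scrambled replicate 2. The level was 68.7% of the scrambled mean and the log2 fold change -0.54 (SE 0.142, edgeR adjusted p = 3.48e-03). The antisense transcript NR4A1AS, with 32 to 67 counts, overlaps 754 exonic bases of NR4A1, which had 115 to 201 counts. NR4A2 (ENSG00000153234, chromosome 2 from 156324437 to 156342348) was at 2.45, 2.60 and 3.41 CPM in the control samples and 2.91, 3.75 and 3.68 CPM in the knockdown samples. Its groups overlapped, at 53 to 87 counts per sample, the fewest of the 10 receptors, and its log2 fold change of 0.30 did not pass the test (SE 0.183, edgeR adjusted p = 0.172). The remaining member of this subfamily, NR4A3, had too few counts to be tested.

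The factors that induce NR4A genes moved both ways, with 3 higher and 3 lower of 10 tested and a median of 0.04. SRF, the serum response factor, fell by 0.85 on the log2 scale and CRTC1, a CREB coactivator, by 0.60. CRTC3, of the same coactivator family, rose by 0.58, and MEF2C by 0.43.

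**Figure D2:**
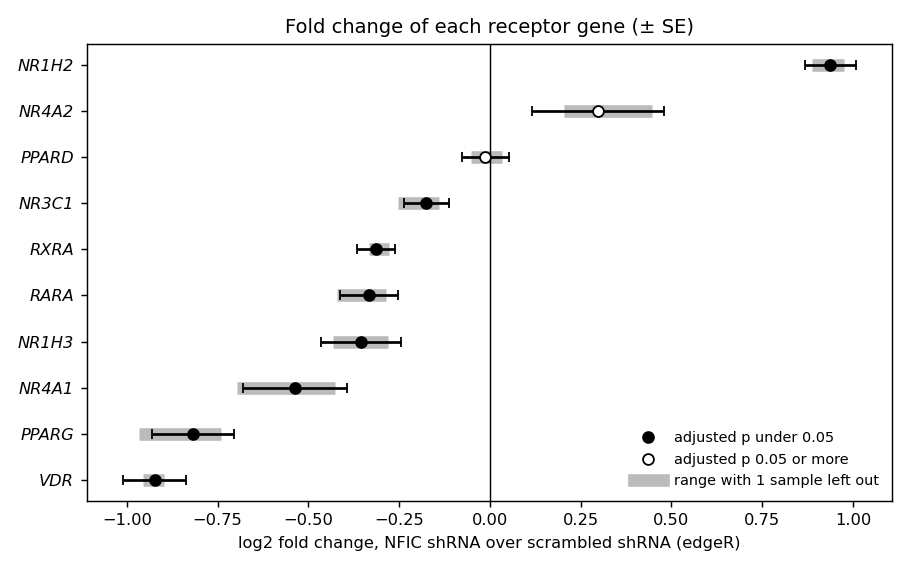
Log2 fold change of NFIC shRNA over scrambled shRNA for each receptor gene (points, bars ± SE), filled where the edgeR adjusted p is under 0.05, with the range over leaving out 1 sample in grey. NR1H2 at 0.94 and VDR at -0.92 mark the ends, and NR4A2 and PPARD are the open points.

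Levels of different receptors were compared per length, as FPKM. In scrambled cells NR3C1 was the highest at 12.7 ± 1.10 FPKM (SD, n = 3), followed by RARA (10.9), PPARD (10.3) and RXRA (9.79), whose ranges each overlapped that of the next. PPARG (6.84 ± 1.20 FPKM), NR1H2 (4.55 ± 0.142 FPKM), VDR (3.47 ± 0.117 FPKM), NR1H3 (2.35 ± 0.243 FPKM), NR4A1 (1.17 ± 0.121 FPKM) and NR4A2 (0.703 ± 0.131 FPKM) followed in that order without overlap between neighbours. By this measure the retinoid, fatty acid and glucocorticoid receptors thus stood above the oxysterol and vitamin D receptors. The order depends on the deposited gene length, 12077 bases for RXRA and 4743 for RARA. The length of the transcripts expressed in these cells was not measured.

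In the NFIC shRNA samples NR3C1 (11.3 ± 0.423 FPKM) and PPARD (10.4 ± 0.589 FPKM) were the highest and did not separate. NR1H2 stood next at 8.80 ± 0.540 FPKM, overlapping RARA at 8.77 ± 0.751 FPKM, which overlapped RXRA at 7.97 ± 0.269 FPKM. NR1H2 thus ranked 3 of 10 here and 6 of 10 in the scrambled samples. PPARG followed at 3.92 ± 0.205 FPKM. NR1H3 and VDR both had 1.85 FPKM and could not be ordered, although VDR had stood above NR1H3 in every scrambled sample. NR4A2 (0.869 FPKM) and NR4A1 (0.814 FPKM) overlapped as well.

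**Figure D3:**
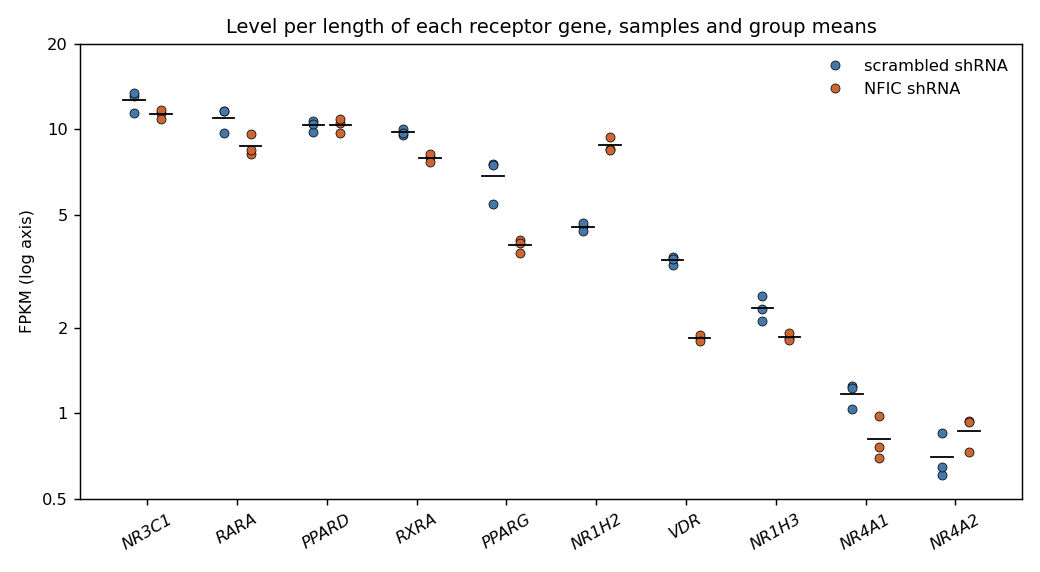
FPKM (log axis) of the receptor genes in each sample, ordered by the scrambled mean, with group means as lines. NR1H2 moves from 4.55 to 8.80 FPKM, into the range of RARA, while VDR falls from 3.47 to 1.85 FPKM, the level of NR1H3.

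Ratios of related receptors within a sample do not depend on scaling between samples. They were taken from counts per kilobase and compared with a two-sided exact permutation test, which with 3 samples in each group cannot give a p under 0.1. The ratio of NR1H2 to NR1H3 was 1.75, 2.08 and 2.01 in scrambled samples and 4.63, 5.21 and 4.43 in knockdown samples. It was thus 2.44-fold higher after NFIC shRNA with no overlap (exact p = 0.1, the smallest possible, and 0.133 adjusted over the 4 ratios). PPARD to PPARG went from 1.41, 1.80 and 1.40 to 2.38, 2.85 and 2.73, or 1.73-fold, also without overlap (exact p = 0.1, adjusted 0.133). The ratio of NR4A1 to NR4A2 was 2.06, 1.60 and 1.44 in the control and 1.04, 1.04 and 0.748 in the knockdown, a fold of 0.555 without overlap (exact p = 0.1, adjusted 0.133). In each of these 3 pairs every knockdown sample thus lay on the same side of every scrambled sample, a separation that this test cannot call at 0.05. How many other gene pairs separated likewise was not counted, and 59.9% of all genes tested passed the edgeR test. RXRA to RARA did not separate the groups, at 0.902 ± 0.117 in scrambled and 0.912 ± 0.0633 in knockdown samples (SD, n = 3, exact p = 0.8), a log2 difference of 0.02.

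**Figure D4:**
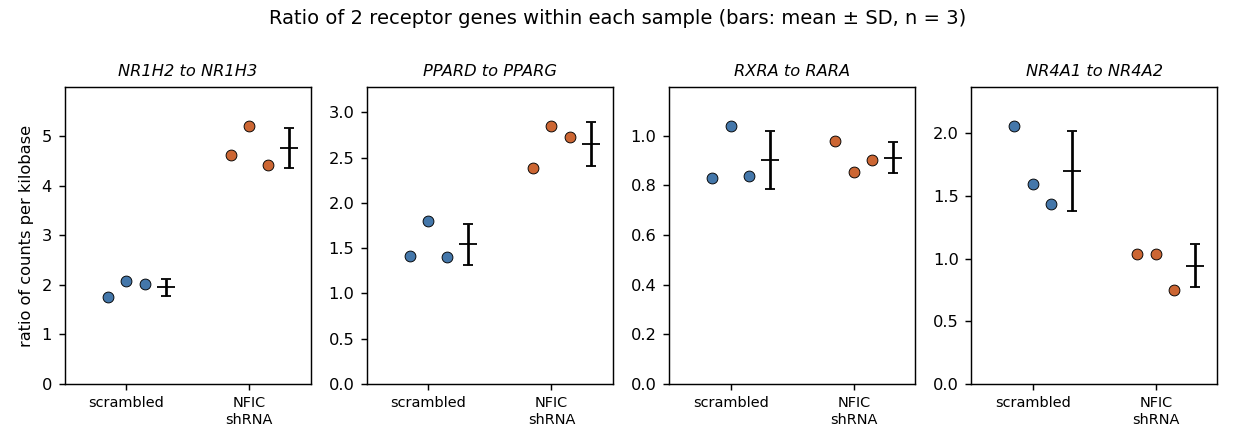
Ratio of counts per kilobase of 2 receptors within each sample (vertical axes from 0), with mean ± SD. The NR1H2 to NR1H3 ratio lies between 4.43 and 5.21 in the NFIC shRNA samples and between 1.75 and 2.08 in the scrambled samples, and the RXRA to RARA ratio overlaps between groups.

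The remaining nuclear receptors were listed to place these 10 in their family. Of the 48 family genes listed, 43 were in the table and 31 were tested, and the 12 that were not had at most 9 counts in any sample. Beside the 10 described, 13 of 21 passed the test, 7 higher and 6 lower, with a median log2 fold change of 0.01. NR2F1 (COUP-TFI) and PPARA, the remaining PPAR, rose by 0.87 and 0.42 on the log2 scale. NR1I2, the pregnane X receptor, fell by 2.53, from 3.58 to 0.619 CPM, and NR1D1 (REV-ERB alpha), a repressor of the circadian clock, fell by 0.93.

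Cofactors that the receptors share were measured in full. Of 11 genes of corepressor complexes, 4 rose and 5 fell, with a median of 0.03. TBL1X, a subunit of the complexes that repress through unliganded receptors, fell by 0.72 on the log2 scale. LCOR, a ligand-dependent corepressor, rose by 1.47, from 41.7 to 116 CPM, and RCOR1, the corepressor CoREST, rose by 0.55. Of 13 coactivators 6 rose and 4 fell, with a median of 0.06. The acetyltransferase KAT2B and the p160 coactivator NCOA2 rose by 1.13 and 0.57, and the arginine methyltransferase PRMT1 and the acetyltransferase CREBBP fell by 1.08 and 0.63.

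**Figure D5:**
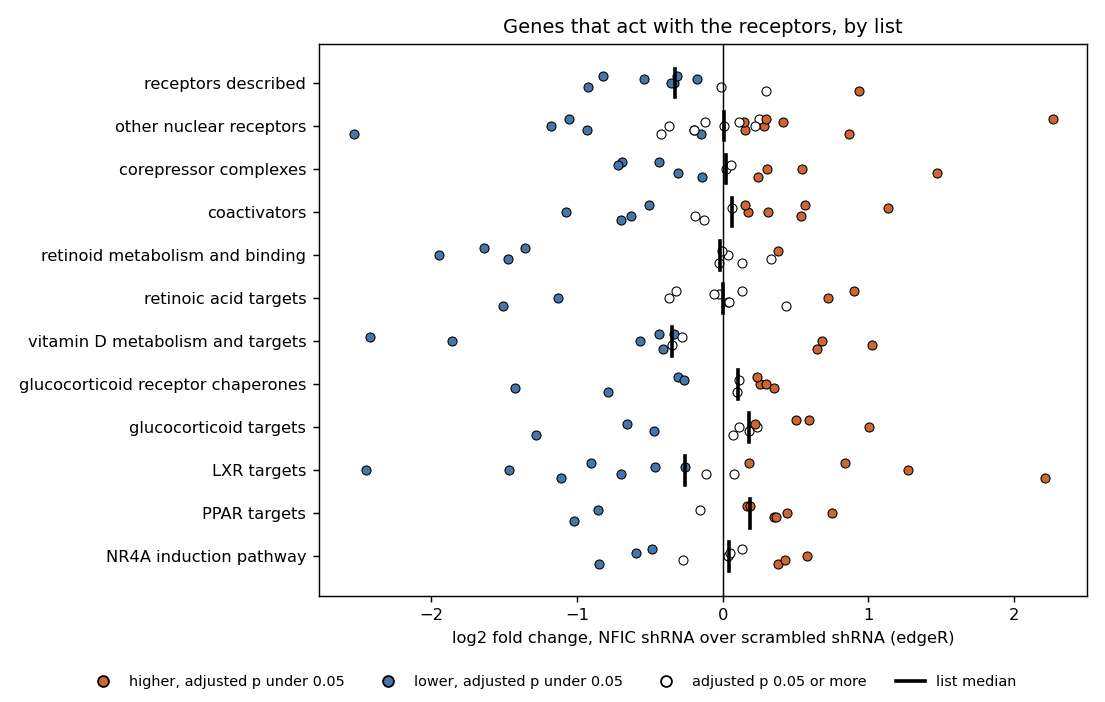
Log2 fold change of the genes tested in each list (points, coloured where the edgeR adjusted p is under 0.05), with the list median as a bar. Every list holds called genes in both directions, and the medians lie between -0.35 for vitamin D genes and 0.18 for PPAR and glucocorticoid targets.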

How the data were processed

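Bulk mRNA libraries (NEBNext Ultra, paired-end) of 3 scrambled and 3 NFIC shRNA samples of THP-1 were analysed. The reads were trimmed with Trim Galore, mapped to GRCh38 with STAR and assigned to genes with featureCounts, per the labels, which name no versions. The authors deposited raw counts per gene. They also deposited a normalized signal, the counts divided by DESeq2 size factors, which was not used here beyond a check of its unit, and FPKM values made from that signal and the deposited gene length. The authors' own comparison (fold changes and p-values from DESeq2) was not used.

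The counts were fitted in edgeR 4.0.16 under R 4.3.3, using TMM factors, filterByExpr and the robust quasi-likelihood test on group alone, with Benjamini-Hochberg adjustment over 19182 genes and a threshold of 0.05. The SE of a log2 fold change is its size over the square root of F. Depth was 20369543 to 24809720 counts per sample. Ratios used an exact permutation test. The code was tested on simulated data. The receptors and the 11 gene lists were chosen with earlier results of these data known. The genes named are NFIC, the 10 receptors, from each list up to 2 higher and 2 lower with the smallest adjusted p, and the 3 most like NR1H2, and other names give background or overlap. Some items chosen by these rules are not reported here. Alternatives were DESeq2 size factors, upper-quartile scaling, DESeq2 1.42.0, no filter, each sample left out, both samples apart on the second component left out, a replicate block, and FPKM for ratios. Positions and overlaps are from GENCODE release 44 and promoters from RefSeq.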

Additional observations from a re-analysis of the deposited data

How the results depend on the processing

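The number of receptors called was 8 under DESeq2 size factors, upper-quartile scaling, no filter on low counts and without both samples apart on the second component, 7 under DESeq2, and between 6 and 8 with each sample left out. Over 120 fold changes of receptors under these alternatives, 114 kept their direction where called and their side of the threshold, and 6 lost the call. These 6 were NR3C1 in 5 settings and NR1H3 without scrambled replicate 1, and the cause was not tested. The log2 ratio of RXRA to RARA ranged from -0.0342 to 0.127 when 1 sample was left out, changing sign around a difference that was not called. No count for a gene list moved by more than 1.5 times. A replicate block on the numbers in the labels also called 8 receptors and changed no receptor's call. The numbers gave no sign of pairing: deviations of samples with the same number correlated at 0.0563, -0.0862 and -0.0446, and 1 of 3 NFIC shRNA samples correlated best with its own number. Upper-quartile scaling moved the median of all genes to -0.07, and PPARD, not called, changed sign under DESeq2. NR4A2 had the fewest counts of the receptors, 53 to 87 per sample, and whether depth limited its test was not examined.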
